A study of Homo sapiens with 6 samples.

Results

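The enzymes that write and erase methyl groups on histone lysines were examined as a set of 50 genes, taken by symbol from a table of 61533 gene rows. They comprise histone lysine methyltransferases, demethylases, proteins with a related JmjC domain, and core subunits of the H3K4 methyltransferase complexes, outside Polycomb and the CXXC proteins. All 50 matched exactly 1 row, and all 50 passed the low-count filter that left 14071 genes for testing. RNA was sequenced from MDA-MB-231, an established human triple-negative breast cancer cell line with mesenchymal features. The 2 groups were shKDM2B cells, in which a short hairpin RNA targets KDM2B (genotype given as KDM2B knockdown, 3 libraries), and cells with an empty vector (genotype given as WT, 3 libraries). Both groups are the same line in the same medium, harvested before confluence, and RNA was depleted of ribosomal RNA before library construction. The knockdown columns all carry 1 code, sh79, so the results describe 1 line under 1 hairpin label, and an effect of that hairpin on other transcripts cannot be told apart from an effect of KDM2B loss.

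Methylation of lysines in histones H3 and H4 marks promoters, enhancers, gene bodies and silent chromatin. Writers carry a SET domain, apart from DOT1L, and use S-adenosylmethionine as methyl donor. Erasers are either flavin-dependent amine oxidases (KDM1A and KDM1B) or JmjC oxygenases, which need iron, oxygen and 2-oxoglutarate. KDM2B itself is a JmjC demethylase whose CXXC zinc finger binds unmethylated CpG sites, and it recruits the Polycomb complex PRC1.1 to CpG islands. The 50 genes described here are therefore relatives of the targeted gene and other enzymes acting on the same histone tails.

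KDM2B was lower in each knockdown library. It had 14.9, 14.5 and 14.6 CPM in the shKDM2B libraries, against 57.3, 68.0 and 65.3 CPM in the empty vector libraries. The 3 shKDM2B libraries were close to each other and far below the lowest empty vector library (log2 fold change -2.12, SE 0.08, adjusted p 8.77e-11, edgeR's quasi-likelihood test; ENSG00000089094.20, chromosome 12 from 121429097 to 121581015, minus strand, GRCh38). CPM are read counts relative to library size, scaled between libraries by TMM, a trimmed mean of gene ratios. Library totals ran from 10190149 to 15737951 counts. The 5 defining markers of the line, AXL, EGFR, CD44, CAV1 and VIM, were abundant in every library. AXL, EGFR and CD44 were higher in shKDM2B (log2 fold changes 0.171, 0.195 and 0.201), and CAV1 (-0.346) and VIM were lower. VIM stood at 406 ± 10.3 CPM in shKDM2B and 1299 ± 52.3 CPM in empty vector cells (log2 fold change -1.68, SE 0.04, adjusted p 1.43e-12). The summed level of 8 breast epithelial and luminal markers, of which 5 passed the low-count filter, ran from 739 to 777 CPM in shKDM2B and from 536 to 686 CPM in empty vector libraries. Most of it was keratin, with KRT8 at 436 ± 16.6 CPM in shKDM2B and 310.4 ± 36.9 CPM in empty vector cells (log2 fold change 0.49, SE 0.07, adjusted p 5.24e-05), while ESR1, PGR and CDH1 did not pass the filter. The summed level of 8 leukocyte markers, of which only LCP1 passed the low-count filter, ran from 7.44 to 9.05 CPM in shKDM2B and from 19.1 to 28.1 CPM in empty vector libraries, with CD3E and LYZ at 0 counts in all 6. The summed level of 7 fibroblast markers, of which 3 passed, ran from 78.1 to 86.4 CPM in shKDM2B and from 10.7 to 14.95 CPM in empty vector libraries, with COL1A1 at 66.4 ± 3.70 CPM in shKDM2B and 5.78 ± 1.76 CPM in empty vector cells. The fibroblast markers COL1A2, DCN and LUM did not pass. The 6 endothelial markers, of which KDR and ESAM passed, summed to 176 to 187 CPM in shKDM2B and 57.8 to 65.1 CPM in empty vector libraries, while PECAM1, CDH5 and VWF did not pass. Mitochondrially encoded genes took 0.326 ± 0.141% of counts in shKDM2B and 0.111 ± 0.0375% in empty vector libraries (SD, n = 3 each), and the nuclear RNA MALAT1 took 0.287 ± 0.0354% and 0.101 ± 0.00576%. The part of these differences in the results below was not tested.

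Of the 50 genes, 19 were higher and 15 lower in shKDM2B cells at an adjusted p under 0.05, and 16 did not pass. The 34 changed genes are 68.0% of the set, beside 60.9% of all tested genes (8571 of 14071). The shares by direction were 38.0% higher beside 30.5% of all tested genes, and 30.0% lower beside 30.4%. Well-expressed genes pass the test more often: among genes with a mean of at least 10 CPM, 33 of 46 members (71.7%) changed, beside 69.6% of all such genes. The share changed is thus close to the background. Among the members, 8 genes (16%) were both changed and at least 1.5-fold apart, beside 28.5% of all tested genes, a difference that was not tested. The members' median log2 fold change was -0.01, as for all tested genes at -0.01, and the median absolute log2 fold change was 0.36, beside 0.37 for all tested genes. The 3 shKDM2B libraries did not overlap the 3 empty vector libraries for 38 members (76.0%), beside 65.5% of all tested genes, a difference that was not tested. Neither this share nor the 1.5-fold share was matched for expression level. In bulk RNA, fewer cells with a transcript and less transcript per cell cannot be told apart.

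**Figure D1:**
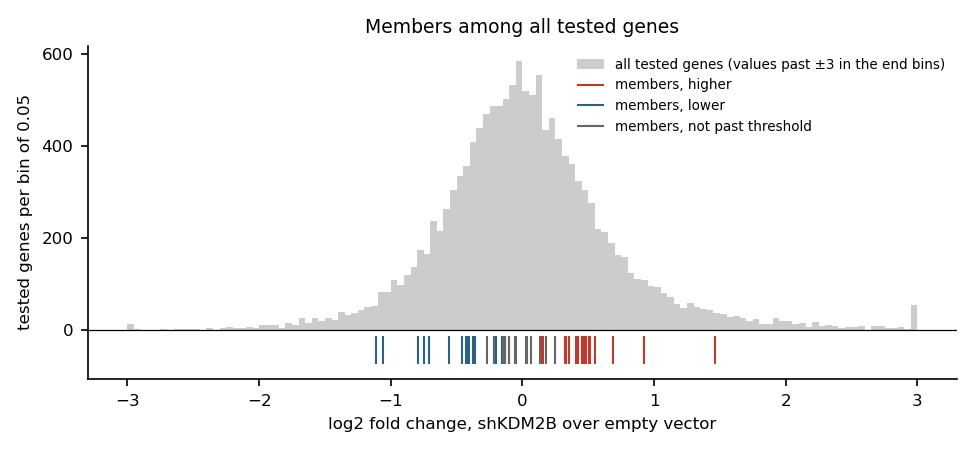
Histogram of the log2 fold change (x axis, shKDM2B over empty vector) of 14071 tested genes, with the number of genes per bin on the y axis and 1 tick under the axis for each of the 50 members, coloured by call. The members spread on both sides of 0, from -1.11 for SMYD2 to 1.46 for KMT5C, within the bulk of all tested genes.

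Of the 21 demethylases and JmjC proteins, 9 were higher and 5 lower, so that 66.7% changed, beside 60.9% of all tested genes. Of all tested genes with a mean of at least 10 CPM, a level that 46 of the 50 members reached, 69.6% changed. Their families hold 2 to 5 genes each. The 3 KDM5 enzymes, which remove methyl groups from H3K4, were all higher, beside 30.5% of all tested genes. The KDM1 enzymes, which act on the same residue by another chemistry, did not pass the test. Of the 29 writers and subunits, 10 were higher and 10 lower (69.0% changed, beside the same 60.9% and 69.6%).

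**Figure D2:**
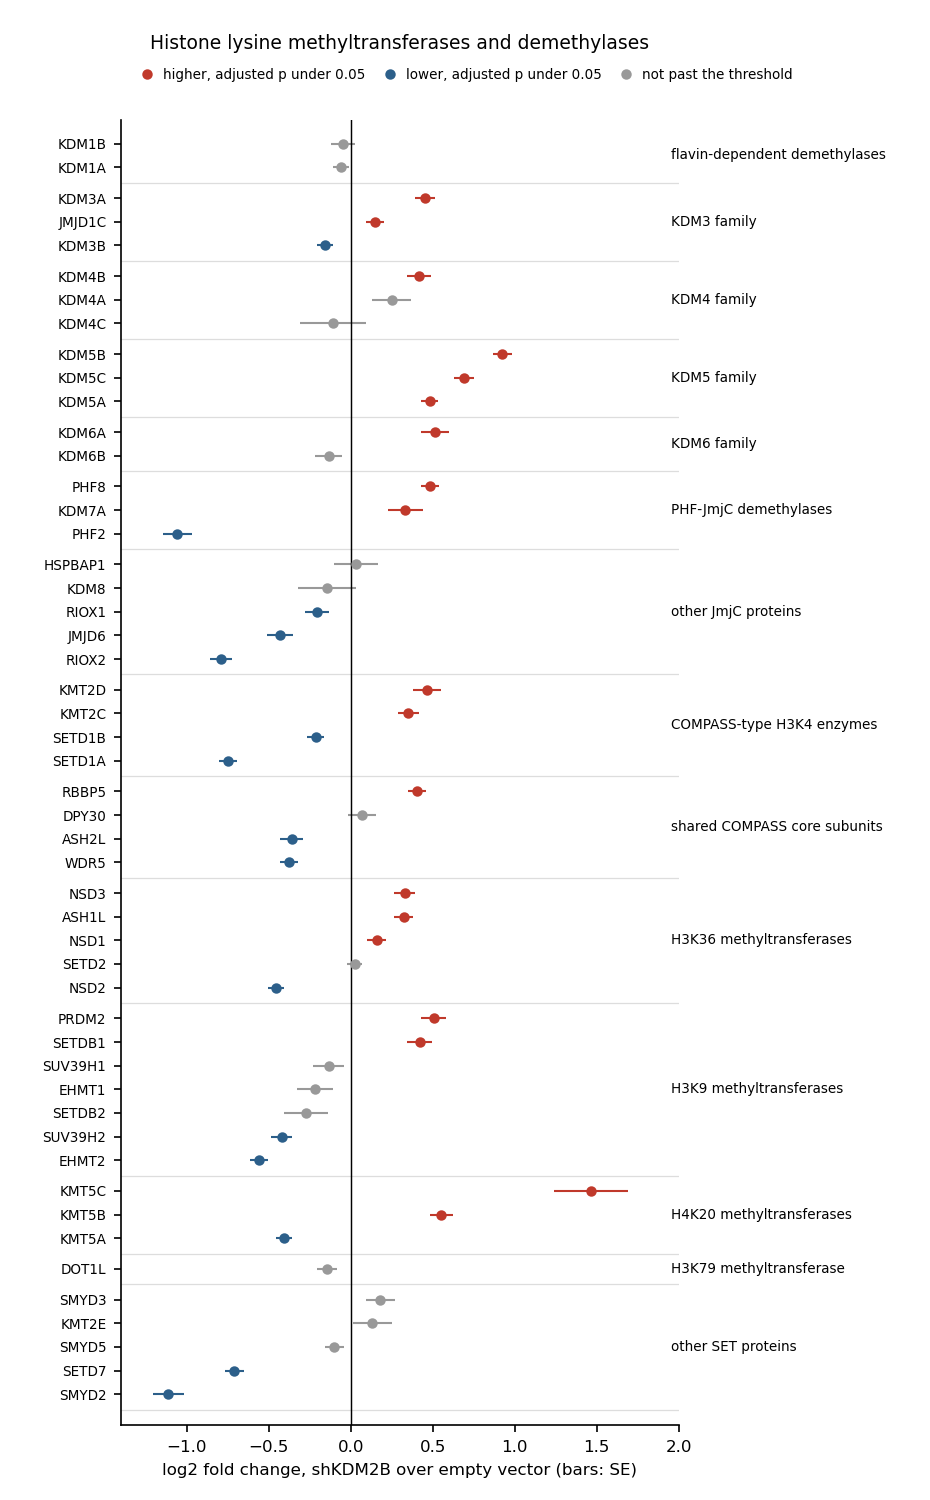
Log2 fold change, shKDM2B over empty vector (x axis, bars are SE from edgeR, 3 libraries each), of the 50 members grouped by enzyme type, coloured by call at an adjusted p of 0.05. The 3 KDM5 genes lie to the right of 0, while most other groups hold members on both sides.

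KDM5B, an H3K4 demethylase known from breast cancer, rose most among the well-expressed members. It had 122, 119 and 128 CPM in the shKDM2B libraries, against 60.9, 67.3 and 65.8 CPM in the empty vector libraries. Every shKDM2B library was above every empty vector library (log2 fold change 0.92, SE 0.06, adjusted p 6.11e-09; ENSG00000117139.18, chromosome 1 from 202724495 to 202809470, minus strand). KDM5C, its X-linked paralog, had 166, 178 and 168 CPM in the shKDM2B libraries, against 99.2, 114 and 104 CPM in the empty vector libraries. Those groups did not overlap either, and the change was 1.61-fold (log2 fold change 0.69, SE 0.06, adjusted p 2.02e-07; ENSG00000126012.13, chromosome X from 53191321 to 53225422, minus strand). KDM5A, first described as a binding partner of the retinoblastoma protein, rose less, at 102, 98.7 and 104 CPM in shKDM2B libraries, against 71.6, 75.5 and 70.9 CPM in empty vector libraries (log2 fold change 0.48, SE 0.05, adjusted p 2.09e-06). KDM5 family transcripts summed to 32.7 ± 0.550 CPM per kb of annotated exon in shKDM2B and 20.6 ± 1.15 in empty vector cells, 1.59 times as much and the largest ratio of the 14 enzyme groups. Per length, KDM5C made up most of the family in both groups, at 59.8 ± 1.56% in shKDM2B and 58.7 ± 0.850% in empty vector cells, KDM5A 25.7 ± 0.954% and 29.2 ± 0.858%, and KDM5B 14.5 ± 0.624% and 12.1 ± 0.324%. These shares and the family sum depend on the union of annotated exons, 25882 bases for KDM5B and 12091 for KDM5A. In CPM, KDM5B averaged 122.7 and KDM5A 101.5 in shKDM2B, and 64.65 and 72.66 in empty vector cells.

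The promoters of the 3 KDM5 genes are shown because they form the family in which every member rose, and because KDM2B binds CpG sites. Each run covers 250 bases before to 50 bases after the annotated start, 5′ to 3′ on the gene's strand, from RefSeq on GRCh38.p14, with each CG dinucleotide in capitals.
KDM5A, chr12:389271-389570, minus strand, 20 CG: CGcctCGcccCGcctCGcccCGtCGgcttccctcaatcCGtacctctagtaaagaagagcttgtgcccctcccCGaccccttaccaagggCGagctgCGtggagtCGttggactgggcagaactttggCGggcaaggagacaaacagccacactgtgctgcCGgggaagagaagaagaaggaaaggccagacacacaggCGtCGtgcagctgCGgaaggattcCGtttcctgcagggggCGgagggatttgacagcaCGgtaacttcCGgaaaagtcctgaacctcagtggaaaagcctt
KDM5B, chr1:202808372-202808671, minus strand, 34 CG: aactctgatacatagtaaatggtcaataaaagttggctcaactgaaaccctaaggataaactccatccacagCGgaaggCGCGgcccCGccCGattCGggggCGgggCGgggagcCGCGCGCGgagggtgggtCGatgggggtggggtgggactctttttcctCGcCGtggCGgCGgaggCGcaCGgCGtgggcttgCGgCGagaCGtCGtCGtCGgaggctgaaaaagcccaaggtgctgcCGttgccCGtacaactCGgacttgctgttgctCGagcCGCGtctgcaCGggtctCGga
KDM5C, chrX:53225158-53225457, minus strand, 22 CG: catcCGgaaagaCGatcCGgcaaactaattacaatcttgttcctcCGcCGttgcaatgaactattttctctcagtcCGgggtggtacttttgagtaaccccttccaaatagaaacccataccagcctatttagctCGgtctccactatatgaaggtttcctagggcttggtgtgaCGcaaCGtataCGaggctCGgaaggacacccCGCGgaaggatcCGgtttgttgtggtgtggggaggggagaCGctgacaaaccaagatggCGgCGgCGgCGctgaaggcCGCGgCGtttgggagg
Across all 27305 promoters of the table the median was 14 CG, and over the 10414 promoters of tested genes it was 26. KDM5B, with 34 CG, lay above that median, while KDM5C with 22 and KDM5A with 20 lay below it. No binding was measured here, so the letters describe the promoters only.

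KDM1A, also called LSD1, was the most abundant member per length, at 37.1 ± 0.513 in shKDM2B and 38.6 ± 1.48 in empty vector cells (CPM per kb). That rank depends on the union of annotated exons, 5440 bases for KDM1A and 19776 for NSD2. Before division by length NSD2 was higher, at 444 and 610 CPM in shKDM2B and empty vector cells, against 202 and 210 CPM for KDM1A. The log2 fold change of KDM1A was -0.06 (SE 0.05, adjusted p 0.319). KDM1B had a log2 fold change of -0.05 (SE 0.07, adjusted p 0.602), and KDM1A held 81.1 ± 1.22% of the pair's level per length in shKDM2B and 81.2 ± 1.52% in empty vector cells. KDM1A works in the CoREST complex with histone deacetylases. All 11 measured genes of a list of 12 CoREST and LSD1 partners changed, 9 of them higher and 2 lower, beside 69.6% of all tested genes with a mean of at least 10 CPM, a level that each of the 11 reached. The difference from that share was not tested. The median change over the 11 was 0.32 on the log2 scale. HDAC1, a deacetylase of the complex, averaged 217 ± 0.871 CPM in shKDM2B and 146 ± 1.55 CPM in empty vector cells (log2 fold change 0.57, SE 0.05, adjusted p 1.04e-07). RCOR1, the CoREST scaffold, chosen after its values were seen, rose (log2 fold change 0.52, SE 0.06, adjusted p 3.87e-06). None of the 11 reached 1.5-fold, and RCOR2 did not pass the low-count filter.

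The KDM3 enzymes, which act on mono- and dimethylated H3K9, did not move together. KDM3A, a hypoxia-inducible member with 1 named pseudogene copy, rose, with 59.0, 61.6 and 57.8 CPM in the shKDM2B libraries, against 43.1, 45.0 and 42.4 CPM in the empty vector libraries (log2 fold change 0.45, SE 0.06, adjusted p 1.91e-05). KDM3B fell slightly (log2 fold change -0.16, SE 0.05, adjusted p 0.0122), and JMJD1C rose slightly (log2 fold change 0.15, SE 0.05, adjusted p 0.0269). Neither small call was kept in every alternative. The adjusted p of KDM3B was 0.0648 without shKDM2B replicate 2. That of JMJD1C lay from 0.0505 to 0.0903 when any shKDM2B library was left out and was 0.157 without the low-count filter. The family sum was 43.1 ± 0.575 CPM per kb in shKDM2B and 41.9 ± 1.5 in empty vector cells.

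Among KDM4 enzymes, which remove methyl groups from H3K9 and H3K36, KDM4B rose (log2 fold change 0.42, SE 0.07, adjusted p 0.00015), with 66.1, 62.8 and 64.9 CPM in the shKDM2B libraries, against 44.3, 53.7 and 47.1 CPM in the empty vector libraries. Its groups were separate. KDM4A had a log2 fold change of 0.25 (SE 0.12, adjusted p 0.0833) and KDM4C had a log2 fold change of -0.11 (SE 0.20, adjusted p 0.668), from 40 to 119 counts per library for KDM4C. KDM4A shares 40.2% of its annotated exon bases with another gene on the same strand, so its count is uncertain. Without empty vector replicate 2 its log2 fold change was 0.39 (adjusted p 0.000755).

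PHF2, a JmjC demethylase of H3K9 with a PHD finger, fell most among the erasers. It had 14.7, 17.2 and 15.6 CPM in the shKDM2B libraries, against 34.5, 31.1 and 33.2 CPM in the empty vector libraries, and the 2 groups were far apart (log2 fold change -1.06, SE 0.09, adjusted p 1.44e-07; ENSG00000197724.11, chromosome 9 from 93576407 to 93679587, plus strand). A named pseudogene copy leaves its count uncertain. Its relatives were higher. PHF8, which removes marks from H3K9 and H4K20, had 82.2, 82.0 and 81.8 CPM in the shKDM2B libraries, against 61.2, 57.2 and 57.7 CPM in the empty vector libraries (log2 fold change 0.48, SE 0.05, adjusted p 2.49e-06). KDM7A rose (log2 fold change 0.33, SE 0.11, adjusted p 0.0147), a call lost without shKDM2B replicate 1 (adjusted p 0.0659) or replicate 3 (0.0765). PHF2 made up 20.1 ± 1.64% of the 3 genes' level per length in shKDM2B and 41.7 ± 0.321% in empty vector cells, while their sum was 14.2 ± 0.0482 and 14.2 ± 0.680 CPM per kb. Over the 9 erasers of H3K9 named so far (KDM3, KDM4, PHF2, PHF8 and KDM7A), 5 were higher and 2 lower. The shares were 55.6% higher, beside 30.5% of all tested genes, and 22.2% lower, beside 30.4%. These differences were not tested, and the shares were not matched for expression level.

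The H3K27 demethylases differed. KDM6A, a subunit of the KMT2C and KMT2D complexes, had 46.8, 44.6 and 46.0 CPM in the shKDM2B libraries, against 33.1, 27.4 and 35.2 CPM in the empty vector libraries (log2 fold change 0.52, SE 0.09, adjusted p 0.000128), with no overlap. KDM6B, an inducible paralog, had a log2 fold change of -0.14 (SE 0.08, adjusted p 0.176). KDM6A took 70.1 ± 1.36% of the pair's level per length in shKDM2B and 59.6 ± 3.18% in empty vector cells.

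JmjC proteins known mainly as hydroxylases were lower or did not pass. RIOX2, a nucleolar histidyl hydroxylase of ribosomal proteins also called MINA, had 27.7, 27.9 and 28.8 CPM in the shKDM2B libraries, against 49.3, 49.0 and 47.8 CPM in the empty vector libraries (log2 fold change -0.79, SE 0.07, adjusted p 1.64e-07; ENSG00000170854.18, chromosome 3 from 97941818 to 97972457, minus strand). All shKDM2B libraries were below all empty vector libraries. Exons of CRYBG3 on the opposite strand cover 27.6% of its exon bases. CRYBG3 itself had a log2 fold change of -0.38 (SE 0.08, adjusted p 5.22e-04), and the strand setting of the counting is not given. JMJD6, a lysyl hydroxylase of splicing factors, fell (log2 fold change -0.43, SE 0.08, adjusted p 0.000245), with 22.6, 21.3 and 22.7 CPM in the shKDM2B libraries, against 30.5, 30.2 and 29.2 CPM in the empty vector libraries. RIOX1, the other ribosomal hydroxylase, had a log2 fold change of -0.20 (SE 0.07, adjusted p 0.0279), a call lost with DESeq2 (adjusted p 0.0731) and without any of 3 libraries (shKDM2B replicates 1 and 2 and empty vector replicate 3, 0.0564 to 0.125). KDM8 had a log2 fold change of -0.14 (SE 0.18, adjusted p 0.503) and HSPBAP1 had a log2 fold change of 0.03 (SE 0.14, adjusted p 0.843). The 5 genes summed to 25.0 ± 1.04 CPM per kb in shKDM2B and 31.5 ± 0.290 in empty vector cells.

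**Figure D3:**
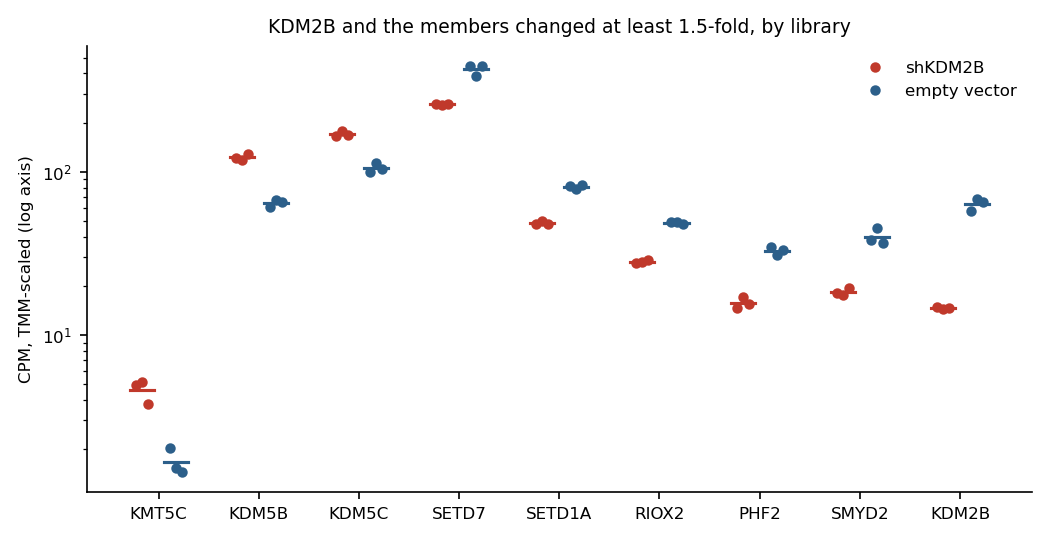
TMM-scaled CPM (y axis, log scale) of KDM2B and of the 8 members changed at least 1.5-fold, ordered by log2 fold change, in the 3 shKDM2B and 3 empty vector libraries (points are libraries, lines are group means). The groups do not overlap for any of the 9 genes shown, with KMT5C, KDM5B and KDM5C higher and the other 6 lower in shKDM2B.

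The H3K4 methyltransferases divided by type. SETD1A, which writes H3K4 methylation at promoters, fell, while KMT2C and KMT2D, which act mainly at enhancers, rose. SETD1A had 47.7, 49.8 and 47.8 CPM in the shKDM2B libraries, against 82.4, 78.8 and 82.5 CPM in the empty vector libraries, groups far apart (log2 fold change -0.75, SE 0.06, adjusted p 3.71e-08; ENSG00000099381.19, chromosome 16 from 30957294 to 30984664, plus strand). SETD1B, its paralog, fell less (log2 fold change -0.21, SE 0.05, adjusted p 0.00317). KMT2D had 203, 174 and 192 CPM in the shKDM2B libraries, against 155, 137 and 121 CPM in the empty vector libraries (log2 fold change 0.47, SE 0.08, adjusted p 0.000351). Its groups did not overlap, and its adjusted p was 0.0783 without empty vector replicate 2. KMT2C rose as well (log2 fold change 0.35, SE 0.06, adjusted p 0.000308), though 5 named pseudogene copies make its count uncertain. Per length, SETD1A held 21.5 ± 1.31% of the 4 enzymes' level in shKDM2B and 34.2 ± 1.28% in empty vector cells, and KMT2D 28.0 ± 1.19% and 19.3 ± 1.68%. Their sum was 33.0 ± 1.22 CPM per kb in shKDM2B and 34.8 ± 1.52 in empty vector cells.

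These enzymes share the WDR5, RBBP5, ASH2L and DPY30 core, which also went both ways. WDR5 fell (log2 fold change -0.37, SE 0.06, adjusted p 4.31e-05) and ASH2L fell (log2 fold change -0.36, SE 0.07, adjusted p 0.00047), with 3 named pseudogene copies that leave its count uncertain. RBBP5 had 68.8, 69.1 and 69.5 CPM in the shKDM2B libraries, against 52.9, 50.6 and 53.2 CPM in the empty vector libraries, higher in every shKDM2B library (log2 fold change 0.40, SE 0.06, adjusted p 1.92e-05). DPY30 had a log2 fold change of 0.07 (SE 0.08, adjusted p 0.511), and it shares 50.5% of its exon bases with MEMO1 on the same strand, so its count is uncertain. Together, 3 of the 8 H3K4 writers and core subunits were higher and 4 lower, and 7 of 8 (87.5%) changed. All 8 had a mean of at least 10 CPM, and of all tested genes at that level 69.6% changed. The difference from that share was not tested. Of 10 cofactors particular to single complexes, 3 were higher and 3 lower, so that 60% changed, beside 60.9% of all tested genes. All but PAGR1 had a mean of at least 10 CPM, where 69.6% changed. The changed cofactors were led by BOD1L1, a SETD1A-associated protein, at a log2 fold change of -0.60 (SE 0.07, adjusted p 3.15e-06), and HCFC2, a host cell factor paralog, at a log2 fold change of 0.50 (SE 0.09, adjusted p 0.000305).

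NSD2, a writer of dimethyl H3K36, was the most highly expressed H3K36 methyltransferase and fell, with 434, 441 and 458 CPM in the shKDM2B libraries, against 609, 642 and 578 CPM in the empty vector libraries (log2 fold change -0.46, SE 0.05, adjusted p 1.33e-06). Its groups were separate. Its paralogs were higher: NSD3 had a log2 fold change of 0.33 (SE 0.06, adjusted p 0.000484) and NSD1 had a log2 fold change of 0.16 (SE 0.06, adjusted p 0.0259), the NSD1 call being lost without any of 3 libraries (shKDM2B replicates 1 and 3 and empty vector replicate 3, adjusted p 0.0535 to 0.137) and without the low-count filter (0.12). ASH1L, another writer of dimethyl H3K36, rose (log2 fold change 0.32, SE 0.06, adjusted p 0.000269). SETD2, which alone writes trimethyl H3K36 in gene bodies, had a log2 fold change of 0.03 (SE 0.05, adjusted p 0.658), with 186, 186 and 186 CPM in the shKDM2B libraries, against 182, 183 and 184 CPM in the empty vector libraries. NSD2 fell to 31.0 ± 0.449% of the 5 genes' level per length in shKDM2B, against 41.1 ± 1.18% in empty vector cells, and their sum was 72.4 ± 1.20 and 75.0 ± 2.35 CPM per kb. Elongation partners of SETD2 in the PAF1 list were higher for 4 of 7 and lower for 1 (71.4% changed, beside 60.9% of all tested genes). At a mean of at least 10 CPM, a level that all but LEO1 reached, 69.6% of tested genes changed. The difference from these shares was not tested. LEO1, a PAF1 subunit, had a log2 fold change of -0.53 (SE 0.13, adjusted p 0.00281) and CDC73, another subunit, one of 0.38 (SE 0.05, adjusted p 1.2e-05).

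H3K9 methyltransferases also split. EHMT2, called G9a, which writes mono- and dimethyl H3K9 in euchromatin, had 54.5, 54.9 and 53.4 CPM in the shKDM2B libraries, against 79.6, 83.8 and 76.3 CPM in the empty vector libraries, lower in every shKDM2B library (log2 fold change -0.56, SE 0.06, adjusted p 9.67e-07). Its partner EHMT1 had a log2 fold change of -0.22 (SE 0.11, adjusted p 0.105). EHMT1 passed the threshold in 2 of 13 alternatives, among them the fit without the low-count filter (-0.24, adjusted p 0.00324). SUV39H2, a heterochromatin enzyme, fell (log2 fold change -0.42, SE 0.07, adjusted p 6.84e-05), and SUV39H1 had a log2 fold change of -0.14 (SE 0.10, adjusted p 0.247), with 20.3% of its exon bases under a gene on the opposite strand. SETDB1, which silences retroelements with TRIM28, rose, with 43.7, 43.3 and 44.3 CPM in the shKDM2B libraries, against 35.5, 29.5 and 33.0 CPM in the empty vector libraries (log2 fold change 0.42, SE 0.08, adjusted p 0.000271). PRDM2, a PR domain protein also called RIZ, rose (log2 fold change 0.51, SE 0.07, adjusted p 4.7e-05), and SETDB2 had a log2 fold change of -0.27 (SE 0.13, adjusted p 0.0893). SUV39H1 and SETDB2 each passed in 1 of 13 alternatives (lowest adjusted p 0.0183 and 0.0423). The 7 genes summed to 40.9 ± 0.352 CPM per kb in shKDM2B and 46.4 ± 1.80 in empty vector cells.

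Of 12 partners and readers of H3K9 methylation, 2 were higher and 3 lower. The share changed was 41.7%, beside 60.9% of all tested genes, a difference that was not tested. At a mean of at least 10 CPM, a level that all but ATF7IP2 reached, 69.6% of tested genes changed. The number changed was 3 with DESeq2 or without any of 4 libraries (each shKDM2B replicate and empty vector replicate 1). WIZ and ZNF644, zinc finger proteins that recruit the EHMT1 and EHMT2 pair, moved in opposite directions. WIZ averaged 47.9 ± 0.636 CPM in shKDM2B and 98.3 ± 3.90 CPM in empty vector cells (log2 fold change -1.04, SE 0.06, adjusted p 1.46e-09), and ZNF644 averaged 307 ± 7.69 CPM in shKDM2B and 190.5 ± 6.09 CPM in empty vector cells (log2 fold change 0.69, SE 0.05, adjusted p 2.39e-08). The HP1 genes CBX1, CBX3 and CBX5, chosen after their values were seen, had log2 fold changes of -0.05, 0.04 and -0.12 with adjusted p of 0.479, 0.512 and 0.0631.

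In the H4K20 group, KMT5A, the writer of the monomethyl mark, fell, while KMT5B and KMT5C, which add further methyl groups, rose. KMT5A had 73.8, 75.8 and 73.3 CPM in the shKDM2B libraries, against 100.4, 97.3 and 97.7 CPM in the empty vector libraries (log2 fold change -0.41, SE 0.05, adjusted p 7.48e-06), but 3 named pseudogene copies make its count uncertain. KMT5B had 57.8, 56.5 and 62.1 CPM in the shKDM2B libraries, against 37.2, 42.3 and 40.8 CPM in the empty vector libraries (log2 fold change 0.55, SE 0.07, adjusted p 8.58e-06). For both genes the groups were separate. KMT5C showed the largest fold of the 50 members, 2.76-fold, on few reads, with 51, 59 and 58 counts in shKDM2B and 21, 16 and 20 counts in empty vector libraries (log2 fold change 1.46, SE 0.22, adjusted p 6.07e-05; ENSG00000133247.14, chromosome 19 from 55339853 to 55348120, plus strand). Per length KMT5C made up 4.04 ± 0.649% of the 3 genes in shKDM2B and 1.32 ± 0.248% in empty vector cells, KMT5B 28.4 ± 1.49% and 17.5 ± 1.21%, and KMT5A 67.6 ± 0.877% and 81.1 ± 0.978%.

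DOT1L, the H3K79 methyltransferase without a SET domain, had a log2 fold change of -0.14 (SE 0.06, adjusted p 0.056), with the 3 shKDM2B libraries below the 3 empty vector libraries. It passed the threshold under upper-quartile scaling (adjusted p 0.0405), without a low-count filter (0.0285) and without empty vector replicate 1 (0.0178) or 3 (0.0440). Of 6 DOT1L partners, 2 were higher and 3 lower (83.3% changed, beside 69.6% of all tested genes with a mean of at least 10 CPM). Each of the 6 reached that level, and the difference was not tested. Among the lower ones were MLLT3, or AF9, at a log2 fold change of -0.64 (SE 0.11, adjusted p 0.000139) and MLLT6 at a log2 fold change of -0.57 (SE 0.06, adjusted p 1.98e-06).

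SMYD2, a methyltransferase of p53 and other proteins as well as histones, fell most of all 50. It had 18.0, 17.5 and 19.5 CPM in the shKDM2B libraries, against 38.1, 45.1 and 36.4 CPM in the empty vector libraries, and no shKDM2B library came near an empty vector library (log2 fold change -1.11, SE 0.10, adjusted p 1.93e-07; ENSG00000143499.14, chromosome 1 from 214281102 to 214337131, plus strand). SETD7, which monomethylates H3K4 and many other proteins, was abundant and fell to 259.9, 256 and 261 CPM in shKDM2B libraries, against 446, 383 and 442 CPM in empty vector libraries (log2 fold change -0.71, SE 0.06, adjusted p 1.03e-07; ENSG00000145391.14, chromosome 4 from 139495941 to 139606699, minus strand). SMYD3 had a log2 fold change of 0.18 (SE 0.09, adjusted p 0.085), SMYD5 one of -0.10 (SE 0.06, adjusted p 0.143) and KMT2E, a SET protein with no established methyltransferase activity, one of 0.13 (SE 0.12, adjusted p 0.355). SMYD3 passed in 1 of 13 alternatives (lowest adjusted p 0.0023). The 5 genes summed to 57.4 ± 1.53 CPM per kb in shKDM2B and 74.1 ± 1.23 in empty vector cells, 0.774 times as much and the smallest ratio of the 14 groups. Of 17 measured SET, PRDM and JmjC genes outside the 50, from a list of 20, 1 was higher (5.88%, beside 30.5% of all tested genes) and 8 lower (47.1%, beside 30.4%). The difference from those shares was not tested. PRDM1, the transcriptional repressor BLIMP1, averaged 13.5 ± 1.59 CPM in shKDM2B and 3.63 ± 0.531 CPM in empty vector cells (log2 fold change 1.90, SE 0.15, adjusted p 8.83e-08), and JMJD8, an endoplasmic reticulum JmjC protein, averaged 4.39 ± 0.597 CPM in shKDM2B and 11.4 ± 1.28 CPM in empty vector cells (log2 fold change -1.35, SE 0.15, adjusted p 2.28e-06).

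**Figure D4:**
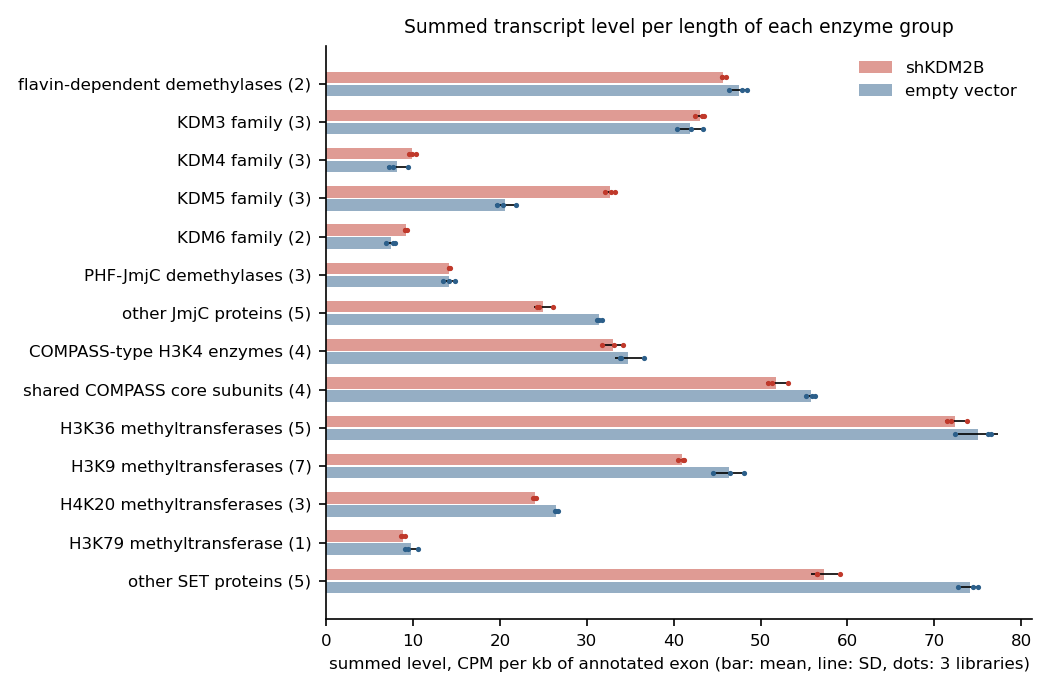
Summed level of each enzyme group in CPM per kb of annotated exon (x axis, from 0), with bars for the mean, lines for the SD and dots for the 3 libraries of shKDM2B (upper bar) and empty vector (lower bar), and the number of genes in brackets. The KDM5 family stands higher in shKDM2B, while the other JmjC and other SET groups stand lower.

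Promoters of PHF2 and SMYD2 are shown as those of the 2 members with the deepest falls, in the same form as above.
PHF2, chr9:93576334-93576633, plus strand, 55 CG: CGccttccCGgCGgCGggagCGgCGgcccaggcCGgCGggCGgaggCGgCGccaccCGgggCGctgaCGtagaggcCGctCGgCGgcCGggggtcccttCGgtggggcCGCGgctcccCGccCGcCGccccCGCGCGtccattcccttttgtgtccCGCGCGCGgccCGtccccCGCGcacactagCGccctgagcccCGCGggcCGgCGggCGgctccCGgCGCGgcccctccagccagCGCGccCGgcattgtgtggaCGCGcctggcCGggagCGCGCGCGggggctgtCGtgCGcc
SMYD2, chr1:214280909-214281208, plus strand, 52 CG: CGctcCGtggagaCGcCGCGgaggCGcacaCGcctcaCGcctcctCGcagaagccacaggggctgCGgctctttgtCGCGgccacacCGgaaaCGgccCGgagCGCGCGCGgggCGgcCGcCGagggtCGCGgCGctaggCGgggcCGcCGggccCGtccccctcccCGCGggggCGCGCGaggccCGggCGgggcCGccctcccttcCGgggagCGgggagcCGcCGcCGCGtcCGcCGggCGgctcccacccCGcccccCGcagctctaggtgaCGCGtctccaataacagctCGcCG
Both are among the most CpG-dense promoters, above 99.6% and 99.2% of all promoters in the table. Median CG counts by call lay close together. For 42 members with a promoter in the table, the median was 27.5 CG for 18 higher genes, 30.0 for 10 lower genes and 28.5 for 14 that did not pass, beside 26 for all tested genes. This covers 18 of 19 higher members but only 10 of 15 lower ones. Only 1 start per gene was used, and some lie away from the annotated gene start. The JMJD1C window (6 CG) is at 63269194 to 63269493, while the gene, on the minus strand, begins at 63521850. The NSD1 window (7 CG, with the word CACGTG) ends at 177131847, before the gene starts at 177133025. The counts hold for these windows only. NSD2, which fell, had the highest count at 63, but KDM7A and KMT2C, which rose, had 56 each. The E-box CACGTG, the word bound by MYC and its partners (a palindrome, so the same on both strands), was in 8 of the 42 promoters (19.0%), beside 10.0% of tested genes' promoters and 7.43% of all in the table. They were 5 genes that were higher (KDM4B, KDM6A, KMT2D, NSD1 and SETDB1), 1 that was lower (EHMT2) and 2 that did not pass (HSPBAP1 and KDM4C). The word TGATGNAA, part of the element bound by ATF4 with its partners, searched on both strands, was in 0 of 42, beside 1.67% of tested genes' promoters. These matches describe letters in a window and not binding.

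Members that rose had longer annotated exons, by their median, than members that fell, which is a description with no test. The median union of exons was 11066 bases for the 19 higher members and 5969 bases for the 15 lower ones, beside 5751 and 4885 bases for all higher and lower tested genes. Across the 50 members, which share the 6 libraries, length and log2 fold change had a Spearman rho of 0.33, and across 13922 tested genes with a length, 0.09. The hexamer CGACAC, searched on the transcript strand in the annotated 3′ UTR of the longest coding transcript, was present in 2 members, PHF2 with 1 copy and SETD7 with 2, both lower. KDM2B had 2 copies. Among tested genes the hexamer was in 7.97% of lower, 3.52% of higher and 4.99% of all genes with an annotated 3′ UTR. The word was chosen with earlier results of these data known, so these shares are no independent evidence. The calls were not matched for 3′ UTR length or CpG content. The part of the hexamer in the change of PHF2 and SETD7 was not tested.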

How the data were processed

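The authors deposited raw read counts per gene as 1 table with 6 columns, 1 per library. GRCh38 is the build in the submitters' processing notes, which also list STAR, Trim Galore and featureCounts, and for statistics limma, edgeR and DESeq2, with no versions. No source used here gives the annotation release, how strand was set or what was done with multi-mapping reads. Columns were matched to samples by name and replicate number, and the code sh79 was read as shKDM2B, the only hairpin group. Symbols were found for 61415 of 61533 identifiers. Exon lengths, coordinates and 3′ UTRs came from GENCODE release 29 on GRCh38, and promoters from RefSeq on GRCh38.p14.

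A low-count filter (filterByExpr, at least 10 counts, at least 15 in total) came before TMM scaling. Groups were compared, shKDM2B over empty vector, with edgeR 4.0.16 (R 4.3.3, robust quasi-likelihood fit, two-sided), with Benjamini-Hochberg adjustment over all 14071 genes at 0.05. Each SE is the absolute log2 fold change over the root of F. CPM per kb divides TMM-scaled CPM by the union of annotated exons. Ranks, shares and sums per length depend on that union, which can be longer than the transcripts expressed. The fit was also run on simulated counts with a small part of the genes changed and a single dispersion. In these data 60.9% of tested genes were called, a setting that the simulation did not cover. DESeq2 1.42.0, limma 3.58.1 (voom), 2 other scalings, 2 other filters, a replicate block and leaving out each library were alternatives. Totals per library lay between 10190149 and 15737951 counts. A count of 0 allows up to 3 counts, 0.191 to 0.294 CPM, for counting error only. The labels call replicates biological without naming separate cultures, so p-values measure the spread between these samples, possibly a technical one. By a chi-square summed over genes, with no p-value taken, libraries within a group differed by more than sampling noise (2.00 to 10.0 per degree of freedom). Such a sum does not describe a typical gene and cannot tell biological from technical spread.

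All 50 members and KDM2B are named, with values in every library for those changed at least 1.5-fold at a mean of at least 5 CPM, and for others where a group's description turns on them, chosen after their values were seen. From each list of partner genes the 2 largest changes at that level are named, except for 1 gene that is not reported here. The members, gene lists and sequence words were chosen with earlier results of these data known.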

Additional observations from a re-analysis of the deposited data

How the results depend on the processing

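The log2 fold change of KDM2B ran from -2.19 to -2.08 over the 13 alternatives, past the threshold in each. The number of members higher ran from 16 to 20, lower from 13 to 17, and changed at least 1.5-fold from 8 to 10. Of the 34 changed members, 15 of 19 higher and 13 of 15 lower ones kept their call in every alternative, and of the 16 others 4 stayed on their side of the threshold with the same sign in every one. No scaling moved the median of all genes by more than 0.0108 on the log2 scale. Changed H3K9 partners and readers numbered 3 with DESeq2, in place of 5, and 3 to 7 when single libraries were left out. The cause was not tested.

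Signs turned round only for genes that had not passed. SETD2 was at -0.001 without a filter (adjusted p 0.987). Over the fits without 1 library each, KDM4C ran from -0.356 to 0.104, turning without shKDM2B replicate 1, and KDM1B from -0.107 to 0.010, turning without shKDM2B replicate 2. HSPBAP1 ran from -0.094 to 0.169 and KMT2E from -0.013 to 0.231, both turning without empty vector replicate 2. KDM8 ran from -0.243 to 0.013, turning without empty vector replicate 3. The cause was not tested. Deviations of same-numbered libraries correlated at 0.118, -0.026 and 0.075, and those of differently numbered ones at -0.135 to 0.084. With 3 libraries per group, these values cannot tell whether the replicate numbers pair the libraries. With the replicate number as a block, 20 members were higher and 15 lower, 8 at least 1.5-fold, and KDM4A passed (0.25, adjusted p 0.0264). Depth limits the 4 members below 10 CPM, KMT5C, KDM4C, KDM8 and SETDB2, with 16 to 119 counts per library.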
